A study of Mus musculus with 2 samples.

Results

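The replication-dependent histone genes were taken as the protein-coding genes of GENCODE mouse release M21 whose symbols begin with Hist1h, Hist2h, Hist3h or Hist4h. The rule gave 67 genes of 21755 protein-coding genes on chromosomes 1 to 19 and X. Hist1 held 54 of them on chromosome 13, Hist2 10 on chromosome 3, Hist3 2 on chromosome 11 and Hist4 1 on chromosome 6. By protein, 6 encode the linker histone H1, 18 encode H2A, 18 H2B, 12 H3 and 13 H4. Open chromatin was mapped by DNase-seq, which finds DNA that the nuclease DNase I can cut, in nuclei of the facial prominences (swellings from which jaws, nose and lips arise) of healthy B6NCrl mice, taken as embryos of 11.5 days. Embryos of both sexes were combined, and no source used here gives their number. The series had 1 group of 2 libraries from separate biosamples, the biological replicates 1 and 2 of the labels, so no condition was compared and no test between groups was possible.

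Histones are the proteins around which DNA is wound: H2A, H2B, H3 and H4 form the core of the nucleosome and H1 binds the DNA that links nucleosomes. The genes studied here lack introns as a rule, lie in tight clusters, and are switched on together in S phase, when newly copied DNA has to be packed. Their messenger RNAs end in a stem-loop bound by SLBP in place of a poly(A) tail, and their transcription is organised by NPAT in the histone locus body. A growing embryonic face holds many dividing cells, and a few testis-expressed members of these clusters serve as a contrast because they work in male germ cells.

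Each library had a list of 150 bp peaks with a deposited strength, a whole number whose scale against depth is unknown, and a list of hotspots, wider enriched stretches with a deposited -log10 q value that stops at 100. A promoter peak had its midpoint within 1 kb of an annotated transcription start site (TSS) of the gene, and 2 peaks of different libraries were called shared from an overlap of 75 bp upwards. Over the chromosomes analysed there were 209299 peaks in replicate 1, of which 41.1% were shared, and 219061 in replicate 2, of which 38.5% were shared. The median strength of all peaks was 16 in replicate 1 and 42 in replicate 2, so strengths were compared only within a library. In bulk tissue, fewer cells with an open site and less cutting per cell cannot be told apart. Of 16 marker genes of facial mesenchyme and neural crest, 14 had a shared promoter peak. Other cell types gave 2 of 5 markers of facial ectoderm, 0 of 4 erythroid, 1 of 3 leukocyte, 1 of 3 endothelial, 2 of 5 germ cell and 1 of 3 hepatocyte markers.

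A shared promoter peak was found at 58 of the 67 histone genes (86.6%), against 66% of all protein-coding genes. In each library alone 59 members had a promoter peak, against 69% of all genes in replicate 1 and 72.4% in replicate 2. All 12 H3 genes had a shared one, as did 5 of 6 H1, 15 of 18 H2A, 15 of 18 H2B and 11 of 13 H4 genes. This order depends on the overlap and on the promoter window. When the overlap had to reach 90% of a peak, H3 had the lowest share with 3 of 12, against 31.5% of all genes. The other classes then had 2 of 6 H1, 13 of 18 H2A, 9 of 18 H2B and 6 of 13 H4 genes. A window of 500 bp left 9 of 12 H3, 5 of 6 H1, 15 of 18 H2A, 12 of 18 H2B and 11 of 13 H4 genes. Over all genes that window gave 63.7%. By cluster the counts were 45 of 54 in Hist1, 10 of 10 in Hist2, 2 of 2 in Hist3 and 1 of 1 in Hist4. The 9 genes without a shared peak were Hist1h1d, the testis-expressed Hist1h2aa and Hist1h2ba, and 6 neighbours on chromosome 13 (Hist1h2ao, Hist1h2ap, Hist1h2bq, Hist1h2br, Hist1h4m and Hist1h4n). Apart from Hist1h1d, these had no promoter peak in either library. Any annotated TSS of a gene counted here, and only 4 members have over 1 TSS, while the 21755 genes have 93145. With only the 5′ end of each gene, 58 members had a shared promoter peak, against 61.2% of all genes.

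The strongest promoter peak of a member was ordinary in height for a promoter. Its median strength was 77 in replicate 1 and 122 in replicate 2 over the 59 members that had one, and 85 and 121 over all genes that had one. The middle of the members' distribution was narrow in both libraries, with quartiles of 68 and 90 in replicate 1 and 113.5 and 129 in replicate 2. Over all genes the quartiles were 59 and 99, and 95 and 132. The strongest peak was taken over all annotated TSSs of a gene. Only 4 members have over 1 TSS, while the 21755 genes have 93145, so members and all genes are not like for like. The H4 genes stood highest, with medians of 93 and 129, at median percentiles of 64.3 and 65.7 among the strongest promoter peaks of all genes. Medians of the other classes were 81.5 and 121 for H1, 74 and 117 for H2A, 74 and 118 for H2B, and 73 and 123 for H3. The 6 H1 values include the testis-expressed Hist1h1t (20 and 31) and Hist1h1d (8 and 44). The GENCODE start of Hist1h1d lies 1770 bp from the RefSeq start, where a shared peak had 77 and 127. The H1 medians are therefore a weak measure of the distance between H4 and H1. Genes of a cluster are neighbours and some share a peak, so they are not independent and the classes were not tested against each other.

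**Figure D1:**
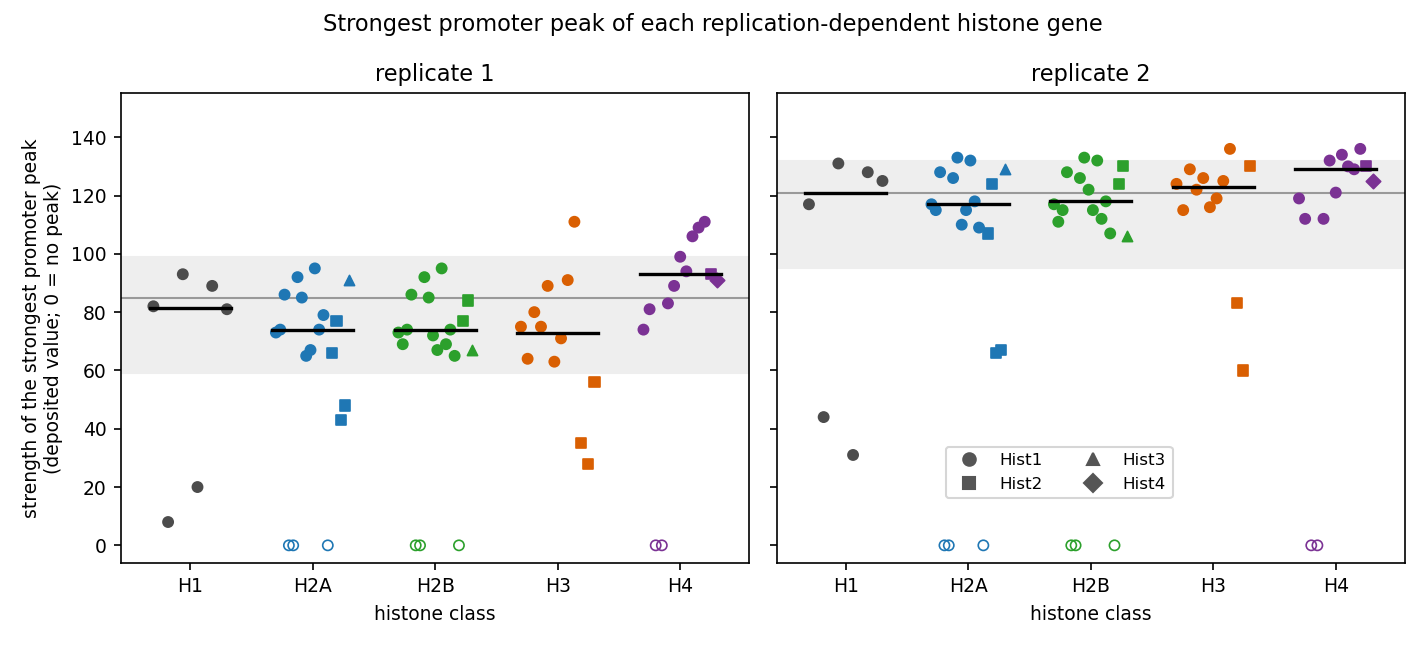
Strength of the strongest promoter peak (y axis, deposited whole number, 0 where no peak was found) of each of the 67 histone genes by class (x axis), with 1 panel per library. Symbols give the cluster, open circles at 0 are the 8 genes with no peak, black bars are class medians over genes with a peak, and the grey band and line are the quartiles and median of all protein-coding genes with a promoter peak. The H4 median is above the grey line in both panels, and the low squares are the 4 Hist2 genes with repeated sequence.

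Hist1 is not a continuous row of genes. With gaps over 100 kb as borders, it fell into 4 blocks on chromosome 13. The first (TSSs from 21716143 to 21833743, mm10) held 18 genes, of which 12 had a shared promoter peak. The next (22035568 to 22043214) had 5 of 5 and the largest (23531050 to 23763666) 28 of 29. The last block held only the testis pair (23934156 to 23934462) with 0 of 2. The Hist2 genes lay on chromosome 3 between TSSs 96219865 and 96269752, the Hist3 genes on chromosome 11 at 58948920 and 58954685, and Hist4h4 on chromosome 6 at 136804415.

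**Figure D2:**
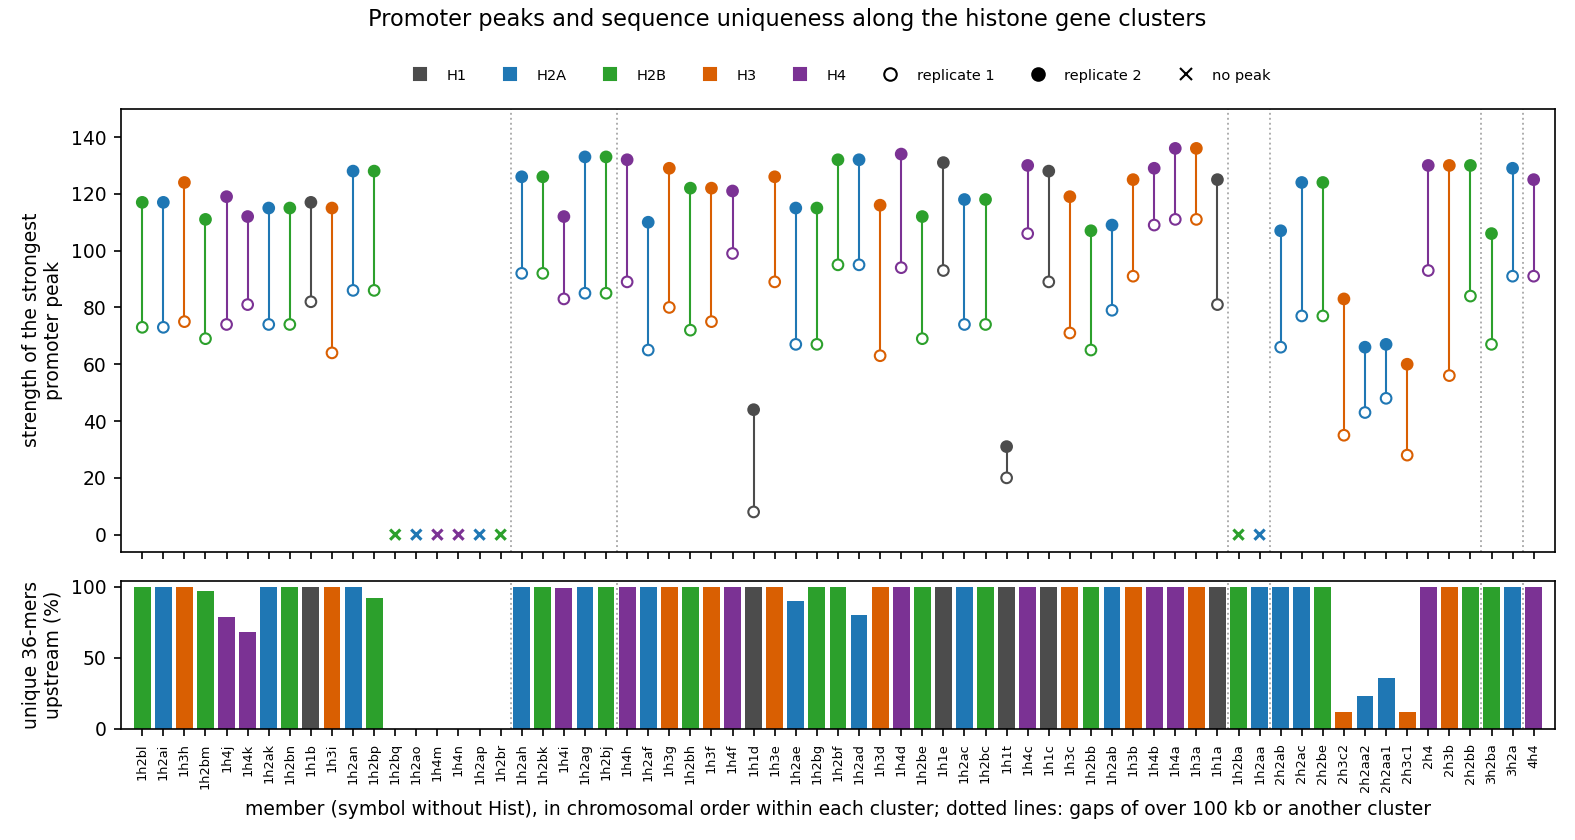
Strength of the strongest promoter peak (upper panel) and share of 36-base words in the 300 bp upstream that occur once in the genome (lower panel, percent) for all 67 members in chromosomal order within each cluster. Open circles are replicate 1, filled circles replicate 2, crosses genes without a peak, and colours histone classes. The 6 adjacent genes with crosses have no unique upstream word, whereas the testis pair with crosses has only unique ones.

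The 6 linker histone genes, all in Hist1, were described first. Such genes carry an upstream H1 box (AAACACA) and a CCAAT box bound by the factor NF-Y. The windows of 3 of them are shown because each holds an H1 box and a CCAAT box while their peaks differed; Hist1h1t has no exact TATA box, which the other two have. These are Hist1h1e at chr13:23622559-23622808 (minus strand), Hist1h1d at chr13:23554782-23555031 (plus strand) and Hist1h1t at chr13:23695561-23695810 (plus strand). Each is the 250 bp before the start given by RefSeq (GRCm38.p6), 5′ to 3′ on the strand of the gene, with capitals marking matches on either strand to the TATA box (TATAAA), the CCAAT box, the octamer (ATTTGCAT), the H1 box, the H4 element core (GGTCCG) and the E2F site (GGCGGGAA).
Hist1h1e: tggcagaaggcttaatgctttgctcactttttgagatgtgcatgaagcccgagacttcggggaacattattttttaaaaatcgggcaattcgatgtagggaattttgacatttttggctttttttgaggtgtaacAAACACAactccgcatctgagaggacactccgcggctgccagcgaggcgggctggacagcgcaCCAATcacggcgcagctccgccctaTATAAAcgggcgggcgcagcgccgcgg
Hist1h1d: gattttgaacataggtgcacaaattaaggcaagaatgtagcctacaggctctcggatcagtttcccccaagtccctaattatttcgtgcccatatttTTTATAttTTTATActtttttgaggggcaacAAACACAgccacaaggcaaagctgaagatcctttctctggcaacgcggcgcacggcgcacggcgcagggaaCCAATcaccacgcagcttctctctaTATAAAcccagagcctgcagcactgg
Hist1h1t: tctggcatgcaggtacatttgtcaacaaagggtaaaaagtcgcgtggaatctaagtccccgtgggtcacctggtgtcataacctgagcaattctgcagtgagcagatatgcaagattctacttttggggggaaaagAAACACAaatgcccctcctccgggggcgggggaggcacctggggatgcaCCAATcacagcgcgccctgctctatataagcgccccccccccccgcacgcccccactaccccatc

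Hist1h1e, whose strongest promoter peak was the highest of its class, reached a strength of 93 in replicate 1 and 131 in replicate 2. Hist1h1c had 89 and 128, Hist1h1b had 82 and 117, and Hist1h1a had 81 and 125. These somatic H1 genes were close to each other within each library.
Hist1h1t, the testis-specific H1, had a weak shared peak of strength 20 in replicate 1 and 31 in replicate 2, at percentiles 3.37 and 2.92 among all genes with a promoter peak. Its hotspot values were 3.67 and 2.38, against the ceiling of 100 at Hist1h1a, Hist1h1b, Hist1h1c and Hist1h1e. Its window holds a CCAAT box, as all 6 H1 windows do, and an H1 box, which Hist1h1a lacks. It has no exact TATA box, and neither has Hist1h1c. None of the 250 bp shown for it lay in a peak of either library.

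Hist1h1d had promoter peaks of strength 8 and 44 that did not coincide, but the count depends on where its start is placed. GENCODE puts the 5′ end at 23553262, inside the block but 1770 bp before the RefSeq start at 23555032. A shared peak at chr13:23554976-23555125 spans the RefSeq start, with strength 77 in replicate 1 and 127 in replicate 2. The replicate 1 value is below those of the other somatic H1 genes (81 to 93). The replicate 2 value lies among theirs (117 to 131). Another shared peak lay at chr13:23556076-23556225 with strengths of 76 and 127. For the other 66 members the 5′ ends of the gene in both annotations were at most 98 bp apart. Further starts inside a gene were not compared, and Hist1h2be has 2 RefSeq promoter windows.

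The strongest peak was centred at 22 bp downstream of the TSS in both libraries for Hist1h1c, at 55 bp for Hist1h1b, and at 48 and 28 bp for Hist1h1e, while Hist1h1a had -36 and -16 bp. The weak peaks of Hist1h1t were centred 276 and 216 bp downstream, and those of Hist1h1d -312 and -932 bp from its GENCODE start. Centres just downstream were not particular to H1, as the H3 genes Hist1h3b (23 and 3 bp) and Hist1h3c (32 and 12 bp) had them too. The H1 box began between -122 and -112 bp in the 5 H1 genes that have it. None of these 5 boxes lay whole within peaks of either library, and since 4.95% of H1 box matches in all windows lay under peaks of both, so few boxes cannot show a difference. Hist1h1a was the H1 gene without an exact match.

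The H2A and H2B genes are mostly arranged head to head, an H2A gene and an H2B gene transcribed away from a common stretch of promoter DNA. There were 12 such pairs, with TSSs 176 to 306 bp apart (median 259.5 bp), and a pair of Hist1h2bh with the H3 gene Hist1h3f 660 bp apart. Of the 12 H2A-H2B pairs, 9 had shared peaks at both promoters, and in 8 of these a shared peak lay between the TSSs. In the ninth, Hist1h2ak with Hist1h2bn, the strongest peaks between the TSSs (74 and 115) overlapped too little to count as shared. In each of these 9 pairs both genes had the same strongest peak, so such a pair contributes 1 measurement and not 2.

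By mean percentile over both libraries, the strongest divergent promoter was that of Hist1h2bf and Hist1h2ad, with strength 95 in replicate 1 and 132 in replicate 2. Hist1h2bj and Hist1h2ag, the highest pair in replicate 2, followed with 85 and 133, and then Hist1h2bk and Hist1h2ah with 92 and 126. The lowest with peaks was that of Hist1h2ae and Hist1h2bg, with 67 and 115, the latter equal to that of Hist1h2ak and Hist1h2bn. Thus the range over the 9 pairs was 67 to 95 in replicate 1 and 115 to 133 in replicate 2.
Among H2B genes the low end by mean percentile was Hist1h2bb with 65 and 107, Hist3h2ba with 67 and 106, and Hist1h2bm with 69 and 111, none of which is in a pair. Among H2A genes it was Hist2h2aa2, Hist2h2aa1 and Hist2h2ab, described with Hist2 below. Hist3h2a had 91 and 129, the third highest of its class by mean percentile.

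The 250 bp before the starts of 3 H2B genes contrast an open divergent promoter, the testis pair and a duplicated gene. Hist1h2bj is at chr13:22042948-22043197 (plus strand), Hist1h2ba at chr13:23934157-23934406 (minus strand) and Hist1h2bq at chr13:21810200-21810449 (minus strand), with capitals as for the H1 genes.
Hist1h2bj: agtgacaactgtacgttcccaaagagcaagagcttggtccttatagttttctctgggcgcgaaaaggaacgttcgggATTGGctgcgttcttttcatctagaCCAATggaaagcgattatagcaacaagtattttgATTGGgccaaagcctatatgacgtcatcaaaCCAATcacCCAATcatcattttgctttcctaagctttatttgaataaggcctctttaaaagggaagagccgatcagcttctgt
Hist1h2ba: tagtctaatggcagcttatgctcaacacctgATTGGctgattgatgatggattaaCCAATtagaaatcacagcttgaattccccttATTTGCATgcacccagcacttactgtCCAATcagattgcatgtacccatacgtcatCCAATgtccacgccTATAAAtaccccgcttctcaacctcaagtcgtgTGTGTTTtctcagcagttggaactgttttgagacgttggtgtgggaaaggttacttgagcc
Hist1h2bq: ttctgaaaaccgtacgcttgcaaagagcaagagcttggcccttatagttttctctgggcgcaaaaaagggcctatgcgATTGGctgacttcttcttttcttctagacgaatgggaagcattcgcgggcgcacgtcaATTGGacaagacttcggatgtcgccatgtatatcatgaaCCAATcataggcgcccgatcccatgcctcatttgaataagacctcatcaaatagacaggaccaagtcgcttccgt
Of the Hist1h2bj sequence 150 bp lay in peaks in each library, and the sequence holds 5 CCAAT matches. The Hist1h2ba sequence has 4 CCAAT matches, an octamer, a TATA box and, on the other strand, an H1 box at -61, and none of it lay in a peak of either library. Hist1h2ba and its partner Hist1h2aa encode testis-expressed H2B and H2A. No promoter peak and no hotspot was found at either gene in either library, and all 36-base words upstream of both were unique.

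Duplicated sequence marked 6 genes of Hist1. Hist1h2bq, Hist1h2ao and Hist1h4m are followed on the chromosome by Hist1h4n, Hist1h2ap and Hist1h2br in mirrored order. The RefSeq windows of Hist1h2bq and Hist1h2br are identical over all 300 bp. For all 6 genes 0% of the 36-base words in the 300 bp upstream occurred once in the genome, and no peak or hotspot was found at the promoter in either library. In contrast, 54 members had at least 90% unique words upstream and 51 of them (94.4%) had a shared promoter peak, against 72.3% of the 18878 genes of the genome that pass this limit. Of all genes with less than 50% unique words, 10.7% had a shared promoter peak, and among members it was 4 of 10. The part of repeated sequence in the absence of peaks was not tested, because reads were not used here.

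Among the 10 H3 genes with a RefSeq window, all 10 had a CCAAT box and 4 had a TATA box. Both are in the 250 bp before Hist1h3b (chr13:23752095-23752344, plus strand), which is shown because its peaks lie over them.
Hist1h3b: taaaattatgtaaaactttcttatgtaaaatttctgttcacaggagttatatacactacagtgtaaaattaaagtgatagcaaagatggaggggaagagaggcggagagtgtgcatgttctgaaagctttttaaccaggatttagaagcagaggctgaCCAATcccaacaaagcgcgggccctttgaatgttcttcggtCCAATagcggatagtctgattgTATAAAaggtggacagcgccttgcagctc
Hist1h3b had strengths of 91 and 125, and peaks of replicate 1 covered 129 of the 250 bp and those of replicate 2 covered 149. Hist1h3e had 89 and 126, and Hist1h3i, the lowest Hist1 H3 gene by mean percentile, 64 and 115. Hist1h3a ranked highest of the class with 111 and 136, but this peak was centred 896 and 936 bp downstream and is the same as that of its neighbour Hist1h4a. Hist1h3a kept a shared promoter peak when each peak was counted only for the nearest TSS.

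The H4 promoters have their own element with the core GGTCCG, bound by the factor Hinfp. It is shown in Hist1h4c (chr13:23698459-23698708, minus strand), which is open, and in Hist1h4m (chr13:21811496-21811745, plus strand), 1 of the 6 duplicated genes.
Hist1h4c: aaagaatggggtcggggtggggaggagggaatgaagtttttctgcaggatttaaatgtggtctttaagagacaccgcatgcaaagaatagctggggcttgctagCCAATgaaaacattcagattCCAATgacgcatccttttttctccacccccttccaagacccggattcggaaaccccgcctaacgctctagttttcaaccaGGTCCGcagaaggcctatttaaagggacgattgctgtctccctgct
Hist1h4m: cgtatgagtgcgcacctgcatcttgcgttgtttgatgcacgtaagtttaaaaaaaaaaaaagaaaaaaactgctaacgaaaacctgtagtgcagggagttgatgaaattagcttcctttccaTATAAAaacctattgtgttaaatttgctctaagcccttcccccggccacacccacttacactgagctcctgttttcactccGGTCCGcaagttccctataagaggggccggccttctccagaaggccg
Hist1h4a had the highest strengths of all members, 111 in replicate 1 and 136 in replicate 2, in the peak it shares with Hist1h3a. By mean percentile Hist1h4b followed with 109 and 129, and Hist1h4c with 106 and 130. In replicate 2 alone other members were above both, among them Hist1h4d with 134 and Hist1h2bj with 133. In replicate 1 Hist1h4a, Hist1h4b and Hist1h4c were at percentiles 95.4, 93.0 and 88.6 among all genes with a promoter peak, and in replicate 2 at 84.9, 65.7 and 68.3.
Hist1h4i (83 and 112), Hist1h4j (74 and 119) and Hist1h4k (81 and 112) were the lowest H4 genes with peaks. Of these, Hist1h4j and Hist1h4k had 79.0% and 68.3% unique words upstream, and Hist1h4i 99%. The strongest peak of Hist1h4h (89 and 132) lay 680 and 700 bp downstream of its TSS. Hist2h4 had 93 and 130, and Hist4h4, the H4 gene that stands alone on chromosome 6, had 91 and 125.

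All 10 Hist2 genes had a shared promoter peak, with median strengths of 61 and 115.5. The 6 genes with unique upstream sequence had 56 to 93 in replicate 1 and 107 to 130 in replicate 2. The 4 with repeated sequence had 28 to 48 and 60 to 83, so the ranges did not overlap in either library. Such a split was not particular to Hist2. Over all genes, those with under 50% unique words upstream had median strengths of 43 and 76, and those with at least 90% had 85 and 122. Hist2h2ac and Hist2h2be shared a peak of 77 and 124, Hist2h2bb had 84 and 130, and Hist2h2ab had 66 and 107. An annotated TSS of the gene Bola1 lies 156 bp from that of Hist2h2ab, so the peaks there cannot be assigned to Hist2h2ab alone. Hist2h3b had 56 in replicate 1, and its value of 130 in replicate 2 came from the peak of Hist2h2bb 956 bp downstream.
The 4 low genes were Hist2h3c1 (28 and 60), Hist2h3c2 (35 and 83), Hist2h2aa1 (48 and 67) and Hist2h2aa2 (43 and 66). Of their upstream words 12% to 35.7% were unique, and the part of this in their strengths was not tested. The strongest peaks of Hist2h3c1 and Hist2h3c2 were 805 to 937 bp downstream of the TSS. Neither had a shared promoter peak within 500 bp.
The 2 Hist3 genes are those named above, Hist3h2ba and Hist3h2a. Hist3h2a shares its annotated TSS with Trim17, a ubiquitin ligase gene, so its peak cannot be told apart from that of Trim17.

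The position of the peaks, measured from the GENCODE 5′ end of the gene, differed by class. Over the 57 members with at least 50% unique upstream words, the base most often under a peak of both libraries was at -125 bp for H2B (81.3% of 16 genes), -100 and -75 bp for H2A (71.4% of 14), -75 bp for H4 (90.9% of 11), -50 bp for H3 (80% of 10), and at the start itself and 25 bp after it for H1 (66.7% of 6). At the TSS base of H2B genes, 31.3% had a peak over it in replicate 1 and 0% in replicate 2, so that 0% had one in both, whereas 81.8% of H4 genes had one in each library and in both. The median centre of the strongest peak over all members was -53 bp in replicate 1 and -91 bp in replicate 2, against -31 and -36 bp for all genes. These distances were taken to the nearest annotated TSS of a gene. As 4 members have over 1 TSS and the 21755 genes have 93145, the medians are not like for like.
The coding parts of these genes resemble each other, which sets a limit beside these positions. In the 300 bp before the TSS 98.3% of 36-base words were unique, and in the 400 bp after it 47.0%. The latter share was 86.0% for H1, 57.9% for H4, 43.0% for H2B, 38.4% for H2A and 30.2% for H3. Divergent pairs set another limit. In the 9 H2A-H2B pairs with shared peaks at both promoters, both genes had the same strongest peak. The H2A and H2B positions are therefore in part those of the same peaks, measured from either end. The annotated starts set a further limit. The 5′ ends of the genes in RefSeq differed from the GENCODE ones by a median of 10 bp. The difference was 1770 bp for Hist1h1d and up to 98 bp for the others. Whether the positions follow from repeated sequence or from the starts used was not tested.

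**Figure D3:**
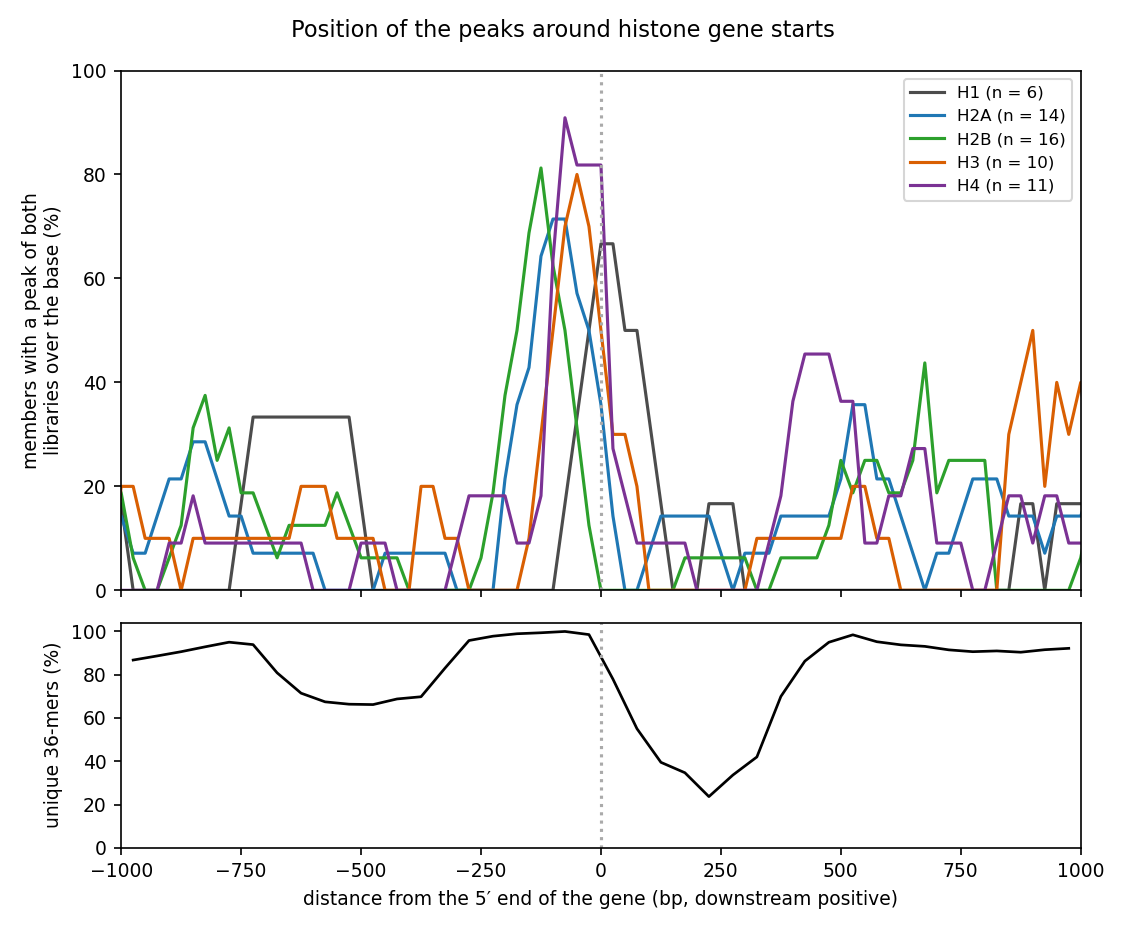
Share of genes of each class with a peak of both libraries over the base (upper panel, percent) and share of 36-base words that occur once in the genome (lower panel, percent) by distance from the 5′ end of the gene in bp. Lines are the 57 members with at least 50% unique words upstream, with n per class in the key. The H2B and H2A shares are highest upstream of the start and the H1 share at the start and just after it, and unique words are fewest after the start.

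The 59 members with a promoter peak also had hotspots. A hotspot was found at the promoter in both libraries for 59 members, against 68.5% of all genes, and 54 members had one at the ceiling in both, against 59.2%. The 5 between these counts were Hist1h1d, Hist1h1t, Hist2h3c1, Hist2h2aa1 and Hist2h2aa2. Hist1h1d and Hist1h1t had low values in both libraries, and Hist2h3c1 had 5.10 and 3.59. Hist2h2aa1 and Hist2h2aa2 were at the ceiling in replicate 1 and at 6 and 5.70 in replicate 2. The Hist1h1d values were read around its GENCODE start, 1770 bp before the RefSeq start. The TSS base itself lay in a hotspot in 37 of the 59 members in each library. Over all genes with a hotspot it did so in 13791 of 15092 in replicate 1 and 14668 of 15839 in replicate 2. Any annotated TSS of a gene counted here. Only 4 members have over 1 TSS, while the 21755 genes have 93145, so these shares are not like for like.
Hotspot borders of the histone genes were also at exactly the same base in both libraries in 119 of 186 cases (64.0%), against 4.49% of 60408 borders at all genes. In the 50 bp outside such a border 70.9% of words were unique on average and inside it 94.7%, while borders that differed had 87.7% outside and 92.1% inside. The part of repeated sequence in the borders was not tested.

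Members had 151 distinct promoter peaks in replicate 1 and 149 in replicate 2, of which 96 in each were shared (63.6% and 64.4%, against 61.7% and 55.8% of the promoter peaks of all genes). In replicate 1, 73 lay upstream of the gene, 43 in the gene body and 35 past its 3′ end, and in replicate 2 the counts were 70, 39 and 40. Upstream peaks had median strengths of 62 and 108, those in gene bodies 42 and 76, and those past the 3′ end 38 and 71. As the median member is 539 bp long, a window of 1 kb reaches beyond the end of most of these genes.

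The classes also differed in their promoter elements. RefSeq windows from 250 bp before to 50 bp after the start were found for 62 members and were searched on both strands, with no motif contained in another. Each member was counted as 1, whereas the background counts every window of every gene. CCAAT was in all 6 H1, 18 H2A, 16 H2B and 10 H3 windows but in 3 of 12 H4 windows, against 37.6% of 32619 windows of all genes. The H4 element core was in 11 of 12 H4 windows, and in 1 H2B and 1 H3 window, against 8.31% of all windows. The octamer, the site of Pou2f1, was in 7 of 18 H2A and 7 of 16 H2B windows and in none of the other classes, against 1.75%. The H1 box was in 5 of 6 H1 windows, 2 H2A and 2 H2B windows, against 7.22%.
TATAAA was in 35 of the 62 windows (56.5%), against 13.7%, and 16 members (25.8%) had it on their own strand between 60 and 15 bp before the start, against 2.69% of all windows. The E2F site was in 5 H4 windows, Hist1h4a among them, and in none of the other classes, against 2.21% of all windows. The windows of divergent pairs overlap, so their H2A and H2B counts are in part counts of the same letters. A match is a description of the letters and does not show that the factor was bound.

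The share of element matches under peaks was read against that in all windows. For a member only its first window was used, whereas the background holds every window of every gene, also where a gene has more than 1. The shares are therefore not fully like for like. Of the 11 H4 cores in H4 windows, 9 lay whole under peaks of both libraries, against 32.9% of the cores in all windows, and the other 2 were those of the duplicated Hist1h4m and Hist1h4n. The CCAAT matches did so in 30 of 54 cases in H2A windows, 31 of 53 in H2B and 14 of 25 in H3, against 26% of matches in all windows. In H1 windows it was 2 of 8 (25%). As the windows of divergent pairs overlap, the H2A and H2B cases are in part the same sites counted for both genes. At least 75 of the 250 bp upstream lay in peaks of both libraries at 37 of the 62 members (59.7%), against 28.7% of all windows, and at only 1 of 6 H1 genes.

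**Figure D4:**
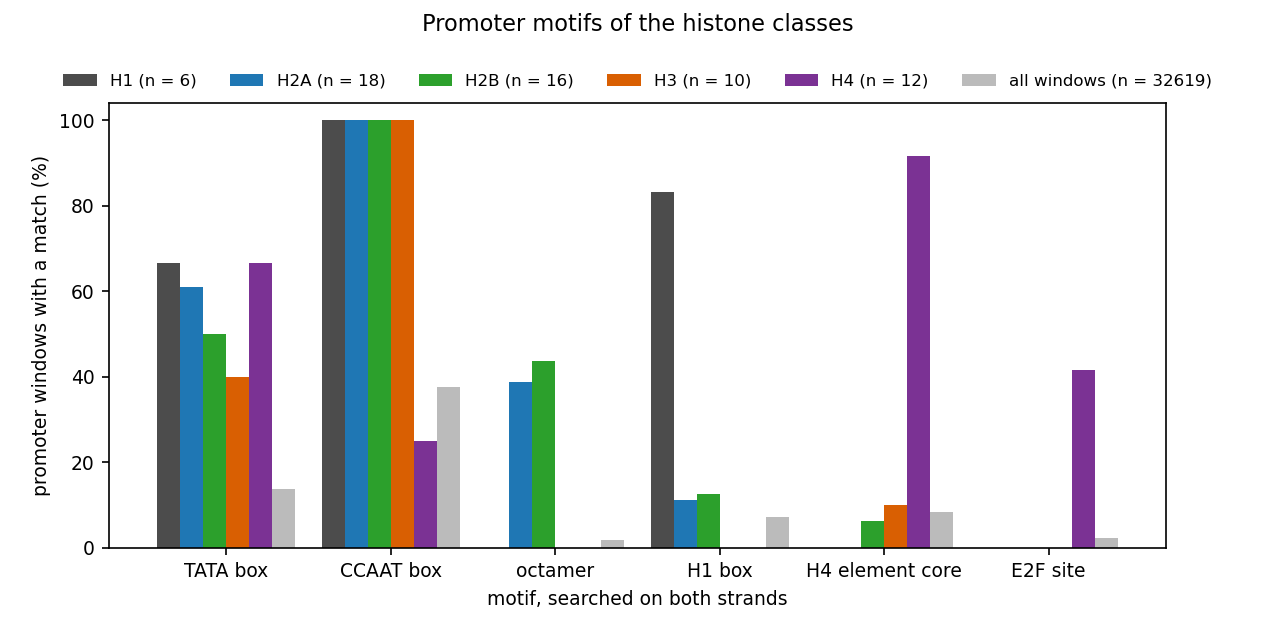
Share of RefSeq promoter windows with a match (y axis, percent) for 6 motifs searched on both strands (x axis), for the 62 members by class and, in grey, for the 32619 windows of all genes. The CCAAT bars reach the top for H1, H2A, H2B and H3 and not for H4, and the H4 element core stands high only for H4.

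The surroundings of the clusters held further open sites. Outside the promoters, 480 peaks of replicate 1 lay within 100 kb of a member TSS, of which 216 were shared, and 392 peaks of replicate 2, of which 217 were shared. Of the 216, Hist1 had 164, Hist2 29, Hist3 12 and Hist4 11. Transfer RNA genes, which supply the adaptors of translation and are read by RNA polymerase III, accounted for many: 88 of the 216 shared peaks were within 250 bp of one. These regions held 64 transfer RNA genes, and 60 of them (93.8%) had a shared peak within 250 bp, against 204 of 339 (60.2%) elsewhere. At Hist1 it was 56 of 58, and at Hist2 4 of 6.
By mean percentile among all peaks, the strongest shared peak around Hist1 was the promoter of Zfp184, a zinc finger gene, at chr13:21944996-21945145 with strengths of 95 and 134. The next 4 were all at transfer RNA genes, led by chr13:22051016-22051165, 7876 bp from the TSS of Hist1h2bj, with 94 and 127. Of the 36 other protein-coding genes whose nearest TSS was within 100 kb, 18 had a shared promoter peak (50%, against 66% of all genes). Wbp11 and BC049715 had promoter peaks of 97 and 128 that did not reach the required overlap between libraries. Olfr1359, Olfr1360, Olfr1361 and Olfr11 (olfactory receptors), Vmn1r188 and Vmn1r189 (pheromone receptors), and the transporter genes Slc17a1, Slc17a2, Slc17a3 and Slc17a4 had no shared one. Around Hist2 the strongest shared peak lay at chr3:96278116-96278265 with 86 and 121, at no annotated promoter of a protein-coding gene. It was followed by promoters of Bola1 (78 and 121), Sf3b4 (76 and 122) and Mtmr11 (54 and 102). Around Hist3 it was the promoter of Zfp39 with 100 and 128, followed by that of Rnf187 with 82 and 127. The strongest near Hist4h4 was the promoter of H2afj, an H2A variant gene 3829 bp away, with 98 and 125, and the next, inside Gucy2c, had 66 and 100.

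Genes that make, process and handle histone messages and proteins formed 4 lists. A shared promoter peak was present at 15 of 15 genes for the transcription of histone genes, 14 of 15 for the 3′ processing and decay of histone mRNA, 11 of 12 histone chaperones and 11 of 11 replication-independent histone genes, against 66% of all genes. Their median strengths were 110 and 137, 93 and 131, 103.5 and 136.5, and 98 and 127 in that order. All were above the 77 and 122 of the clustered genes, with the strongest peak taken over all annotated TSSs of a gene. Only 4 of the clustered genes have over 1 TSS, so these medians may not be like for like. With an overlap of 90% of a peak the counts fell to 4, 9, 7 and 5 in that order, against 31.5% of all genes.
Npat, which activates the clusters, had 111 and 140, and Hinfp, which binds the H4 element, had 112 and 146. Slbp, which binds the stem-loop of histone mRNA, had 109 and 137, and H2afz, the gene of the variant H2A.Z, had 107 and 136. Zfp473, which acts in 3′ processing, had 94 and 132, and the chaperone gene Asf1b had 115 and 145, but their promoter peaks did not reach the required overlap between libraries.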

How the data were processed

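DNase-seq peaks and hotspots of 2 libraries were used as deposited on build mm10. Both lists were called on each library alone, per the labels and the notes deposited with the files. Aligner, caller, versions, read length and read totals: not given in the sources used here, so depth is unknown and no interval for counting error is given. The peak strength is a deposited score of whole numbers, from 1 to 134 in replicate 1 and 2 to 149 in replicate 2 on the chromosomes analysed. The hotspot value is the deposited -log10 of q, from 1.30 to a ceiling of 100.

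Peaks on chromosomes 1 to 19 and X were linked to 93145 distinct TSSs of all transcripts of protein-coding genes in GENCODE M21. Members and lists were chosen with earlier results of these data known. Genes named in the text are all H1, Hist2, Hist3, Hist4 and testis-expressed members, members without a shared promoter peak, the 3 highest and 3 lowest of H2A, H2B, H3 and H4 by mean percentile of strength, and the strongest other shared peaks of each cluster. Neighbouring genes, examples from the lists and members that show an exception were chosen after their values were seen. The lists were replication-independent histones, transcription of histone genes, 3′ processing and decay of histone mRNA, histone chaperones and markers of 7 kinds of cells. With 1 group no test was made. Unique 36-base words were counted over the whole genome on both strands, as a length chosen here. Promoter sequences are those of RefSeq GRCm38.p6, matched by synonym and position for 67 members, of which 62 had a window. Linking and matching were tested on simulated peaks. Python 3.11.15, numpy 2.4.6 and pandas 2.3.3 were used. Alternatives changed the overlap, the promoter window, the start sites, the peaks kept and the library.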

Additional observations from a re-analysis of the deposited data

How the results depend on the processing

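Of 185 recomputed values for 18 results, 166 stayed within 1.5 times the value reported. An overlap of 90% of a peak lowered the members with a shared promoter peak from 58 to 33, while all genes fell to 31.5%. By class it left 2 H1, 9 H2B, 3 H3 and 6 H4 genes, and by cluster 26 in Hist1 and 4 in Hist2. H2A kept 13 of its 15. A window of 500 bp left 52 members, among them 9 H3 genes, 12 H2B genes and 1 Hist3 gene. Hotspots over the TSS base were present in both libraries at 37 members. Other shared peaks numbered 136 within 50 kb, 346 within 250 kb, 62 with an overlap of 90% and 118 where each library kept its 50000 strongest peaks. With 1 library left out, and so with no match required, other peaks ranged from 392 to 480 and members with a promoter peak were 59 either way. Members with a unique promoter alone gave 51. With RefSeq starts, an alternative added after seeing the data, 59 members had a shared promoter peak, Hist1h1d among them. Counting each peak only for its nearest TSS, also added later, gave 55. No paired analysis was possible because there is 1 group. Depth is unknown, so a missing peak is one not detectable here.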
